A study of Cricetulus griseus with 9 samples.

Results

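Collagen is folded, modified and crosslinked by a small set of dedicated proteins, and the levels of 10 of their transcripts were followed here in CHO-K1 cells given more or less miR-29. The genes were chosen by name, with earlier results of these data known. They are Serpinh1, P4ha1, P4ha2, P4hb, Plod1, Plod2, Plod3, Lox, Loxl1 and Loxl2. All 10 had an entry among the 15557 genes of the deposited expression table. CHO-K1 is a line of Chinese hamster ovary cells in long-term culture. The cells were transfected by lipid reagent for 48 h with 1 of 3 small RNAs, namely pre-miR-29b-1, the related pre-miR-29a or the inhibitor anti-miR-29a, and each group had 3 libraries. A pre-miR is a synthetic precursor of the microRNA in its name and adds to that microRNA in the cell. The anti-miR is an inhibitor that the submitters describe as blocking miR-29a and miR-29b-1 alike, so it serves as the low-miR-29 side of each comparison. All groups therefore received a transfected small RNA, and cells without one or with a neutral one were not analysed here. A fall below means a level lower than with anti-miR-29a. Lowering by the pre-miR and raising by the inhibitor cannot be told apart.

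In the endoplasmic reticulum, prolyl 4-hydroxylase and lysyl hydroxylases modify the new collagen chains, and Serpinh1 binds the folded triple helix and accompanies it toward secretion. Outside the cell, lysyl oxidases turn lysine side chains into aldehydes that join neighbouring molecules into crosslinked fibres. The miR-29 family is known as a repressor of collagen and other matrix transcripts, and the libraries ask which transcripts respond to it and whether its members differ.

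Values are FPKM, fragments per kilobase of gene model scaled to the size of the library. Levels may be compared between genes only as far as each model matches its transcript. Transfections were made in separate experiments, and if each molecule had an experiment of its own, molecule and experiment cannot be told apart. Nothing in the labels ties the 3 libraries of a group to different cultures, so the p-values cover only the spread among these libraries, possibly a technical one. Implied depth, read from the steps between low values, was 18500000 to 20780000 reads under pre-miR-29b-1, 16550000 to 18940000 reads under pre-miR-29a and 15100000 to 17750000 reads under anti-miR-29a. Genes listed above 0 numbered 11933 to 12074 under pre-miR-29b-1, 11794 to 11912 under pre-miR-29a and 11338 to 11400 under anti-miR-29a. In bulk RNA, fewer cells making a transcript and less of it per cell cannot be told apart. Marker genes of the cell line were not read, because the table pairs no identifier with a name, and the names of the 10 genes come from the list that chose them.

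The gene models are mouse proteins aligned to the hamster assembly CriGri_1.0, and they hold coding bases only. Serpinh1 (ENSMUSG00000070436) has 4 coding exons with 1254 coding bases on the minus strand of scaffold JH002044, between positions 75201 and 78164. That span of 2964 bases equals the span of the Serpinh1 gene in the RefSeq annotation of hamster assembly CriGri-PICRH-1.0, also 2964 bases. Of the 10 genes, 8 were found in that annotation, and all of these but Serpinh1 have a model span shorter than the RefSeq span. Examples are P4ha1 with 38659 against 56422 bases and Plod2 with 35144 against 69867 bases. P4ha1 (ENSMUSG00000019916, JH000420, 904589 to 943247, plus strand) and P4ha2 (ENSMUSG00000018906, JH000154, 107358 to 127783, plus strand) each have 14 coding exons. At 12 of the 14 places their exons have the same length. P4hb (ENSMUSG00000025130) has 10 coding exons on the minus strand of JH000058, between 2807803 and 2820745.

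The lysyl hydroxylase genes share a layout as well. Plod1 (ENSMUSG00000019055, JH002996, 92399 to 111235, minus strand) has 18 coding exons. Plod2 (ENSMUSG00000032374, JH000796, 284090 to 319233, minus strand) has 19, among them a 63-base exon, its exon 13, that has no exon of equal length in Plod1 or Plod3. With that exon left out, 16 of the 18 exons of Plod1 and Plod2 have the same length. In human cells, alternative splicing of 1 PLOD2 exon gives a long and a short enzyme, and the FPKM per gene do not separate such forms. Plod3 (ENSMUSG00000004846) has 19 exon segments on the plus strand of JH000243, between 1810633 and 1818809, of which 1 is a single base long.

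Of the lysyl oxidases, Lox (ENSMUSG00000024529, JH003366, 65961 to 73340, plus strand) has a model of 609 coding bases in 6 segments, and its exons 3 and 4 lie 1 base apart. Loxl1 (ENSMUSG00000032334, JH000315, 582307 to 601591, minus strand) has 1029 coding bases in 6 exons. The last exons of Lox and Loxl1 measure 120 bases in both genes and those before them 96 bases. Loxl2 (ENSMUSG00000034205, JH000034, 2586356 to 2647386, minus strand) has 13 exons and is listed with 2 models, which have the same exons. None of the 10 genes shares exon bases with another gene.

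With either pre-miR, most of these transcripts stood lower than with anti-miR-29a, and none stood higher beyond the test. Serpinh1 differed most, standing 6.92-fold lower under pre-miR-29b-1 and 6.37-fold lower under pre-miR-29a, followed by Loxl1. P4ha1, Plod1 and Plod2 fell by 1.59-fold to 1.88-fold. P4ha2 and P4hb fell by small amounts, and the P4hb call with pre-miR-29a ended in 11 of 21 alternatives. Loxl2 passed the test with pre-miR-29a but not with pre-miR-29b-1, and Plod3 passed with neither. Lox was listed at 0 in all 9 libraries.

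**Figure D1:**
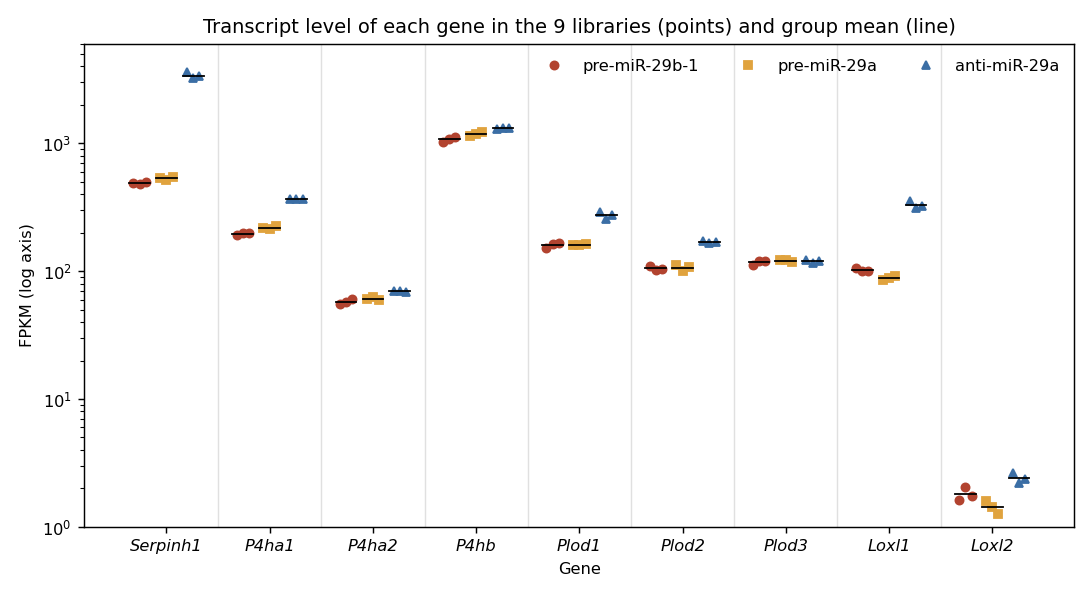
FPKM (log axis) of 9 genes in each of the 9 libraries, with points for libraries and a line for the group mean; Lox, listed at 0 in every library, is left out. The anti-miR-29a libraries lie above all pre-miR libraries for 8 genes, as for 29.2% of all tested genes, and the groups overlap for Plod3.

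The order of the levels in FPKM differed between the groups. Overlap in this order refers to the spread among libraries and does not cover errors of the gene models. With pre-miR-29b-1 the highest was P4hb with a mean of 1080.5 FPKM, followed by Serpinh1, P4ha1, Plod1, Plod3, Plod2, Loxl1 and P4ha2, with Loxl2 far below at 1.82 FPKM. In this group the ranges of Plod2 and Loxl1 overlapped, and those of all other neighbours in the order did not. With pre-miR-29a the order was the same, and no neighbours overlapped. With anti-miR-29a Serpinh1 came before P4hb, Loxl1 stood between P4ha1 and Plod1, and Plod2 came before Plod3, with no overlap between neighbours. Together the 10 transcripts summed to 2310 ± 61.1 FPKM under pre-miR-29b-1, 2476 ± 54.3 FPKM under pre-miR-29a and 6046 ± 215 FPKM under anti-miR-29a (SD, n = 3 each). Serpinh1 made up 21.2% ± 0.47 of that sum under pre-miR-29b-1, 21.5% ± 0.56 under pre-miR-29a and 56.2% ± 1.04 under anti-miR-29a. Without Serpinh1 the sum was 1821 ± 57.6 FPKM under pre-miR-29b-1, 1943 ± 48.9 FPKM under pre-miR-29a and 2647 ± 31.3 FPKM under anti-miR-29a.

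Tests were made with limma on log2(FPKM + 1) over the 9504 genes that averaged 1 FPKM or more, with Benjamini-Hochberg adjustment over all of them and a threshold of 0.05. Of the 10 genes, 9 entered and Lox did not. With pre-miR-29b-1, 7 of the 9 were lower than with anti-miR-29a and 0 higher, while 29.4% of all tested genes were lower and 25.8% higher. With pre-miR-29a, 8 of the 9 were lower and 0 higher, against 30.9% lower and 27.5% higher among all tested genes. After quantile normalization the overall balance turned, with 3170 genes higher and 2474 lower under pre-miR-29b-1 and 3340 higher and 2494 lower under pre-miR-29a. Of the 9 genes, 8 were then lower under pre-miR-29b-1 and 6 under pre-miR-29a, and 0 were higher. With the 6 pre-miR libraries as 1 side, 8 of the 9 were lower, against 32.3% of all tested genes. The median log2 fold change of the 9 genes was -0.69 under pre-miR-29b-1, where that of all tested genes was -0.0057. Under pre-miR-29a it was -0.67, where that of all tested genes was -0.016. In each of these comparisons, 8 of the 9 genes had every pre-miR library below every anti-miR-29a library, a pattern seen in 35.2% of all tested genes under pre-miR-29b-1 and 33.1% under pre-miR-29a. A fall of at least 1.5-fold was seen in 5 of the 9 genes with either pre-miR, against 10.6% of all tested genes under pre-miR-29b-1 and 12.5% under pre-miR-29a. The comparisons with anti-miR-29a share the same 3 anti-miR-29a libraries, so they do not support each other independently. The set was chosen with earlier results of these data known, so its counts beside those of all tested genes are no independent evidence.

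**Figure D2:**
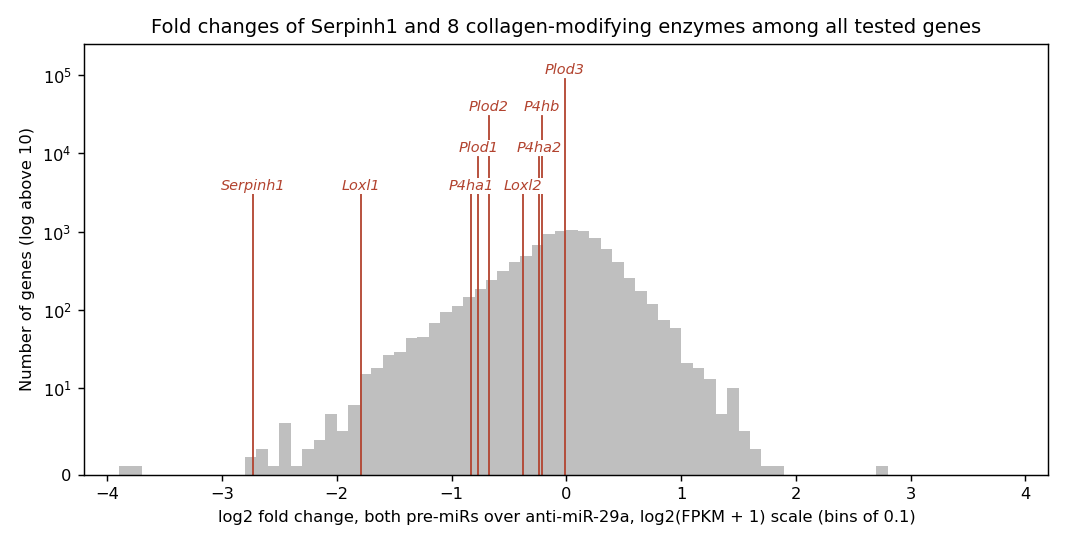
Number of tested genes (log scale above 10) by log2 fold change of both pre-miRs over anti-miR-29a, in bins of 0.1, with red lines at the 9 named genes. Serpinh1 at -2.73 and Loxl1 at -1.79 lie in the sparse lower tail, and Plod3 at -0.01 lies at the centre.

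Serpinh1 encodes the collagen-specific chaperone of the endoplasmic reticulum, a serpin by sequence that does not act as a protease inhibitor. It stood at 489.1, 483.1 and 496.6 FPKM with pre-miR-29b-1, at 539.1, 516.0 and 543.1 FPKM with pre-miR-29a, and at 3597, 3234 and 3365 FPKM with anti-miR-29a. All 6 pre-miR libraries lay far below the 3 anti-miR-29a libraries, without overlap, as was so for 29.2% of all tested genes. With pre-miR-29b-1 the log2 fold change was -2.79 (SE 0.056, limma adjusted p 1.29e-09), which is 6.92-fold lower. With pre-miR-29a it was -2.67 (SE 0.056, limma adjusted p 1.98e-09), 6.37-fold lower. Among the 9504 genes these were the 5th and the 10th lowest fold changes. By level, Serpinh1 ranked 361 of 9504 under pre-miR-29b-1, 349 under pre-miR-29a and 31 under anti-miR-29a. The values rest on 11208 to 77413 implied reads per library.

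The ratio of Serpinh1 to P4hb within a library, which does not depend on library scaling, was 0.454 ± 0.017 under pre-miR-29b-1, 0.450 ± 0.021 under pre-miR-29a and 2.59 ± 0.17 under anti-miR-29a (SD, n = 3 each). The chaperone transcript was thus under the level of P4hb in all 6 pre-miR libraries and above it in all 3 anti-miR-29a libraries.

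Genes were ranked by how closely their log2(FPKM + 1) followed that of Serpinh1 over the 9 libraries, among the 8617 others with a mean of at least 5 FPKM. The closest were ENSMUSG00000022438 with Pearson's r of 0.9995 and ENSMUSG00000024538 with 0.9994. The first stood at 47.1 ± 0.25 FPKM under pre-miR-29b-1, 48.3 ± 1.91 FPKM under pre-miR-29a and 137.5 ± 5.22 FPKM under anti-miR-29a (SD, n = 3 each). The second stood at 16.9 ± 0.41 FPKM under pre-miR-29b-1, 18.2 ± 0.24 FPKM under pre-miR-29a and 241.7 ± 4.24 FPKM under anti-miR-29a. A close r therefore does not mean a like size of change. The libraries fall into a pre-miR set and an anti-miR-29a set, so r mainly describes the gap between them, and 209 genes had an r of at least 0.99. Lox and Loxl2 averaged under 5 FPKM and were not ranked. Of the other named genes, Plod1 came nearest with r of 0.992, then Plod2 with 0.991, P4ha1 with 0.9905 and Loxl1 with 0.9897. P4ha2 had 0.929, P4hb 0.847 and Plod3 0.148.

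Prolyl 4-hydroxylase is built from catalytic alpha subunits, encoded here by P4ha1 and P4ha2, and the beta subunit P4hb, which is also protein disulfide isomerase. Its product, hydroxyproline, lets the collagen triple helix hold at body temperature. P4ha1 stood at 190.3, 197.6 and 199.9 FPKM with pre-miR-29b-1, at 216.5, 213.4 and 225.1 FPKM with pre-miR-29a, and at 367.2, 367.8 and 369.9 FPKM with anti-miR-29a. Its anti-miR-29a values were the tightest of the 9 tested genes, with an SD of 0.387% of the mean, and no pre-miR library came near them. The log2 fold change was -0.91 (SE 0.043, limma adjusted p 1.67e-07) with pre-miR-29b-1 and -0.75 (SE 0.043, limma adjusted p 4.23e-07) with pre-miR-29a.

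P4ha2 changed much less. It stood at 54.9, 57.8 and 60.3 FPKM with pre-miR-29b-1, at 60.2, 62.5 and 59.3 FPKM with pre-miR-29a, and at 70.6, 69.6 and 69.3 FPKM with anti-miR-29a. The anti-miR-29a libraries lay above all others by a narrow margin. The log2 fold change was -0.27 (SE 0.048, limma adjusted p 0.00091) with pre-miR-29b-1 and -0.20 (SE 0.048, limma adjusted p 0.00521) with pre-miR-29a, and the call with pre-miR-29a ended after quantile normalization (-0.12, limma adjusted p 0.054).

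P4hb stood at 1034.5, 1083 and 1124 FPKM with pre-miR-29b-1, at 1139, 1187 and 1229.9 FPKM with pre-miR-29a, and at 1298, 1323 and 1314 FPKM with anti-miR-29a. The groups did not overlap, though the highest pre-miR-29a library came close to the lowest anti-miR-29a library. With pre-miR-29b-1 the log2 fold change was -0.28 (SE 0.056, limma adjusted p 0.00192). With pre-miR-29a it was -0.15 (SE 0.056, limma adjusted p 0.0453), a call that ended in 11 of 21 alternatives, among them quantile normalization (-0.075, limma adjusted p 0.212). It ended when any of 8 of the 9 libraries was left out, where the adjusted p reached 0.112 (limma), and it held without pre-miR-29a replicate 3 (limma adjusted p 0.0436).

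The makeup of the prolyl 4-hydroxylase transcripts differed between the groups. P4ha2 made up 22.4%, 22.6% and 23.2% of the summed P4ha1 and P4ha2 FPKM with pre-miR-29b-1, 21.8%, 22.7% and 20.8% under pre-miR-29a, and 16.1%, 15.9% and 15.8% with anti-miR-29a. The difference between both pre-miRs and anti-miR-29a was 6.31 percentage points (two-sided exact permutation p 0.0119, which is as small as 84 regroupings allow, and 0.0179 adjusted over 3 families). For all 3 families both pre-miR groups were pooled, because 3 against 3 libraries cannot reach 0.05 by this test. Neither pre-miR was tested alone. Without anti-miR-29a replicate 2 the difference was 6.29 points and the call ended (exact permutation p 0.0357, as small as 28 regroupings allow, adjusted p 0.0536). P4ha2 itself was lower with the pre-miRs, so its larger share restates the stronger fall of P4ha1. The ratio of P4hb FPKM to the summed P4ha1 and P4ha2 FPKM was 4.26 ± 0.054 under pre-miR-29b-1, 4.25 ± 0.11 under pre-miR-29a and 2.99 ± 0.031 under anti-miR-29a (SD, n = 3 each). The P4hb transcript thus stood higher relative to these 2 alpha transcripts in the pre-miR libraries, and protein subunits were not measured.

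Lysyl hydroxylases add the hydroxyl groups from which stable crosslinks and sugar attachments start. Plod1 acts mainly on lysines within the triple helix, Plod2 on those of the telopeptides at the chain ends, and Plod3 also carries glycosyltransferase activity. Plod1 stood at 152.9, 163.3 and 166.8 FPKM with pre-miR-29b-1, at 159.1, 161.5 and 162.4 FPKM with pre-miR-29a, and at 289.6, 257.8 and 276.4 FPKM with anti-miR-29a. Plod2 stood at 109.3, 102.4 and 103.4 FPKM with pre-miR-29b-1, at 112.2, 99.8 and 108.1 FPKM with pre-miR-29a, and at 171.7, 166.9 and 170.2 FPKM with anti-miR-29a. For both genes the pre-miR groups overlapped each other and lay below every anti-miR-29a library. Both fell. The log2 fold change of Plod1 was -0.77 under pre-miR-29b-1 (SE 0.054, limma adjusted p 2.20e-06) and -0.76 under pre-miR-29a (SE 0.054, limma adjusted p 1.92e-06). That of Plod2 was -0.69 under pre-miR-29b-1 (SE 0.053, limma adjusted p 3.69e-06) and -0.67 under pre-miR-29a (SE 0.053, limma adjusted p 3.85e-06).

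Plod3 stood at 111.8, 119.9 and 119.5 FPKM with pre-miR-29b-1, at 123.5, 123.1 and 117.2 FPKM with pre-miR-29a, and at 123.2, 116.7 and 120.3 FPKM with anti-miR-29a. The 3 groups overlapped. The log2 fold change was -0.04 with pre-miR-29b-1 (95% interval -0.14 to 0.07, limma adjusted p 0.537) and 0.01 with pre-miR-29a (95% interval -0.09 to 0.12, limma adjusted p 0.817), and its sign turned under some alternatives. Neither interval reaches the fold changes of Plod1 or Plod2. The values rest on 3689 to 4952 implied reads per library.

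**Figure D3:**
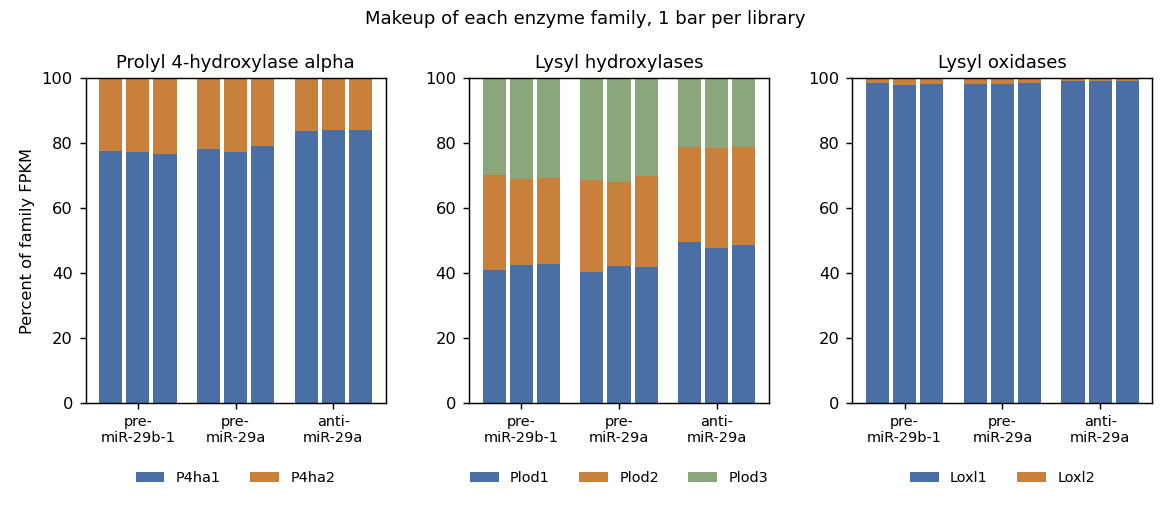
Share of each family's summed FPKM held by each gene, 1 bar per library, for the P4ha, Plod and lysyl oxidase genes; Lox is listed at 0 and has no visible share. Plod3 takes 29.9% to 32.0% of the lysyl hydroxylase FPKM in the pre-miR libraries and 21.1% to 21.5% in the anti-miR-29a libraries.

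Within the lysyl hydroxylases, Plod1 held 42.0% ± 1.00 of the summed FPKM under pre-miR-29b-1, 41.4% ± 0.95 under pre-miR-29a and 48.6% ± 0.97 under anti-miR-29a (SD, n = 3 each). Plod3 held 30.5% ± 0.61 under pre-miR-29b-1, 31.2% ± 0.91 under pre-miR-29a and 21.3% ± 0.24 under anti-miR-29a. Plod2, whose share was tested, held 27.4% ± 1.55 under pre-miR-29b-1, 27.4% ± 1.29 under pre-miR-29a and 30.1% ± 0.73 under anti-miR-29a. The difference between both pre-miRs and anti-miR-29a was -2.65 percentage points (two-sided exact permutation p 0.0238, also 0.0238 adjusted over 3 families). The highest pre-miR library, at 29.2%, lay just under the lowest anti-miR-29a library, at 29.4%. The call ended without anti-miR-29a replicate 2 (exact permutation, adjusted p 0.107) and without pre-miR-29b-1 replicate 2 or 3 (0.0536 each). These shares come from the same values as the fold changes of Plod1, Plod2 and Plod3 and are no separate evidence.

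Lysyl oxidases are copper-dependent amine oxidases that act in the extracellular space. Loxl1 is known mainly for its part in elastic fibres, Loxl2 for crosslinking of basement membrane collagen, and Lox for fibrillar collagen and elastin. Lox was listed at 0 in each of the 9 libraries, as were 2181 genes of the table in all, and no comparison was made for it. Loxl1 stood at 105.3, 100.4 and 100.1 FPKM with pre-miR-29b-1, at 85.4, 88.4 and 91.7 FPKM with pre-miR-29a, and at 357.0, 313.0 and 322.4 FPKM with anti-miR-29a. Each group lay apart from the others, with pre-miR-29a lowest. The log2 fold change was -1.69 (SE 0.057, limma adjusted p 2.65e-08) with pre-miR-29b-1 and -1.89 (SE 0.057, limma adjusted p 1.53e-08) with pre-miR-29a, or 3.22-fold and 3.70-fold lower. These were the 59th and the 43rd lowest of the 9504 fold changes.

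Loxl2 was near the low end of the table, above only 2.98% of tested genes under pre-miR-29b-1, 2.07% under pre-miR-29a and 4.80% under anti-miR-29a. It stood at 1.63, 2.06 and 1.75 FPKM with pre-miR-29b-1, at 1.59, 1.44 and 1.27 FPKM with pre-miR-29a, and at 2.63, 2.19 and 2.35 FPKM with anti-miR-29a. The anti-miR-29a libraries were highest, and the pre-miR groups did not overlap with them or with each other. With pre-miR-29a the log2 fold change was -0.48 (SE 0.114, limma adjusted p 0.00475). With pre-miR-29b-1 it was -0.27 (SE 0.114, limma adjusted p 0.0696), which did not pass the threshold but did so in 4 of 19 alternatives. These folds depend on the pseudocount, and for both pre-miRs together the value was -0.37 with a pseudocount of 1, -0.54 with 0.1 and -0.16 with 5. Only 48.8 to 105 implied reads per library lie behind Loxl2, so its values are the least precise of the set. Loxl2 made up 1.75% ± 0.24 of the lysyl oxidase FPKM under pre-miR-29b-1, 1.59% ± 0.23 under pre-miR-29a and 0.716% ± 0.019 under anti-miR-29a (SD, n = 3 each), a difference of 0.96 percentage points for both pre-miRs (two-sided exact permutation p 0.0119, 0.0179 adjusted over 3 families). Without anti-miR-29a replicate 2 it was 0.95 points and the call ended (exact permutation p 0.0357, adjusted p 0.0536). Lox was listed at 0 and Loxl2 itself was lower with the pre-miRs, so the larger Loxl2 share restates the stronger fall of Loxl1.

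**Figure D4:**
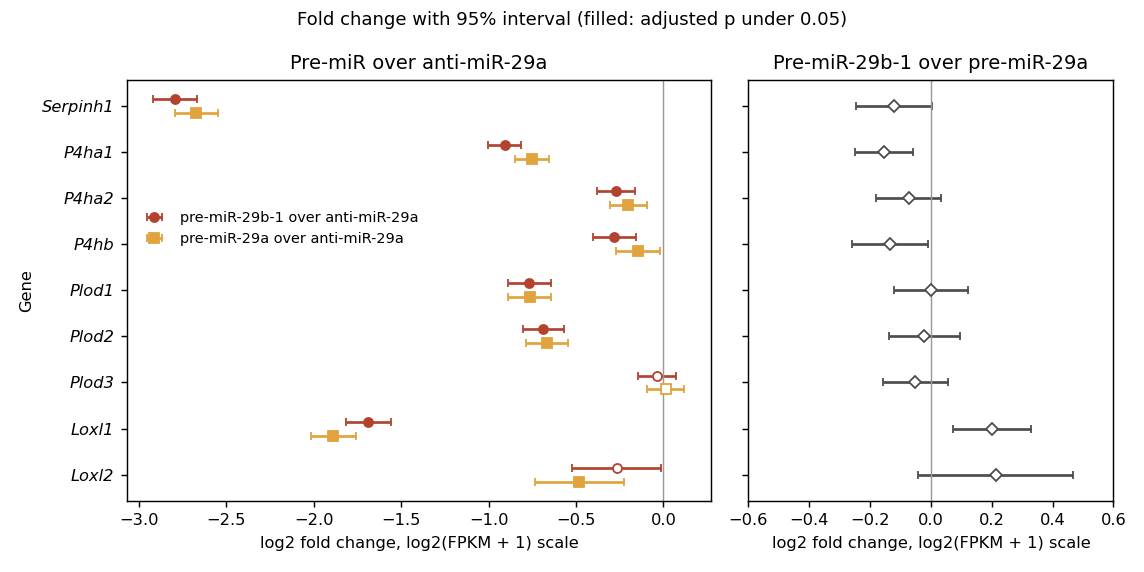
Log2 fold change with 95% interval for 9 genes, each pre-miR over anti-miR-29a on the left and pre-miR-29b-1 over pre-miR-29a on the right, where filled marks have a limma adjusted p under 0.05. All intervals on the right lie between -0.26 and 0.47, and none of the 9 marks there is filled.

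The pre-miRs were then set against each other. By limma, 0 of the 9 genes passed an adjusted p of 0.05 there, where 1 of the 9504 tested genes did (0.0105%). At an unadjusted p under 0.05, there were 3 of the 9 (P4ha1, P4hb and Loxl1) and 1570 of all tested genes. All pre-miR-29b-1 libraries lay below all pre-miR-29a libraries for Serpinh1, P4ha1 and P4hb, as for 8.73% of all tested genes, and above them for Loxl1 and Loxl2, as for 10.2%. The log2 difference was -0.12 for Serpinh1 (95% interval -0.25 to 0.00, limma adjusted p 0.309), -0.16 for P4ha1 (95% interval -0.25 to -0.06, limma adjusted p 0.22), -0.13 for P4hb (95% interval -0.26 to -0.01, limma adjusted p 0.288) and 0.20 for Loxl1 (95% interval 0.07 to 0.33, limma adjusted p 0.22). For Loxl2 it was 0.21 with an interval of -0.04 to 0.47, the widest of the set (limma adjusted p 0.365). P4ha2, Plod1, Plod2 and Plod3 had log2 differences of -0.07 to -0.0011 and overlapping libraries.

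All 9 intervals lay within a 1.5-fold difference, which bounds the difference between the pre-miRs but does not show that they act alike. The count of 0 was not stable. When libraries were weighted by their estimated spread, replicate 1 of pre-miR-29a received a weight of 0.213, replicate 2 of 0.429 and replicate 3 of 3.54. The weighted pre-miR-29a group thus leaned mostly on replicate 3. Then 5 genes passed, with Serpinh1, P4ha1 and P4hb lower and Loxl1 and Loxl2 higher under pre-miR-29b-1 (limma adjusted p 0.00349 to 0.0175), and so did 3627 of the 9504 tested genes. When replicate 1 of pre-miR-29a was left out, 1 gene passed, P4ha1, at -0.16 (limma adjusted p 0.0426), and 1370 of all tested genes did.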

How the data were processed

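RNA of CHO-K1 cells was sequenced as stranded poly(A) libraries with single reads, per the labels' protocols. The authors deposited 1 table of FPKM values per gene and library, made with FastQC, TopHat2 2.0.13 and Cuffnorm per the submitters' processing notes. The sources used here do not give Cuffnorm's version, scaling or filters. Gene models are mouse Ensembl proteins aligned to CriGri_1.0, per the file headers. Values of other unit, the exon positions, are the authors' deposited annotation.

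The 10 genes and their names, and all tests and alternatives, were chosen with earlier results of these data known. The rule for naming genes took all 10, whatever their values, and the 2 other genes most like Serpinh1. Further pathway and marker lists went unused, because 0 identifiers matched the 32251 RefSeq genes. No sequences were used here.

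The 9504 genes that averaged 1 FPKM or more were tested on log2(FPKM + 1) in R 4.3.3 by limma 3.58.1, with 1 term per group, a variance trend and Benjamini-Hochberg adjustment. Fold changes on that scale understate changes of low genes. Family shares were compared by exact permutation in Python 3.11.15. Implied reads were read in genes of at least 3000 coding bases, where low values fell on whole reads to within 0.2 reads in 99.1% to 100% of cases. They are in Cuffnorm's unit and can differ from reads sequenced. Alternatives changed pseudocount, filter, scaling, variance model, weights, libraries in the fit, replicate block and gene models, and left out each library.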

Additional observations from a re-analysis of the deposited data

How the results depend on the processing

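The number of the 9 genes that changed against anti-miR-29a was 7 with pre-miR-29b-1 and lay between 7 and 8 under all alternatives run. It was 8 with pre-miR-29a, between 6 and 8, and 8 with both, between 7 and 8. Over all tested genes the count was 5246 of 9504 with pre-miR-29b-1 and lay between 3987 and 6507 under the alternatives. With pre-miR-29a it was 5553 of 9504, between 4219 and 6790, and with both it lay between 4437 and 6894. Some alternatives tested fewer or more genes. The filter at 5 FPKM and the restriction to genes with 1 model removed Loxl2 by construction. Between the pre-miRs the number of the 9 genes that changed was 0, but 5 with library weights and 0 to 1 without 1 library. The count over all tested genes there was 1, 3627 with weights and 1 to 1370 without 1 library. Deviations from group means correlated between groups at the same replicate number with r of -0.018 to 0.295, over 0.1 in 6 of 9 pairs, and not in every pair, so the numbers were not taken to pair libraries. As a hint from the data that points the other way, the own number correlated best in 13 of 18 checks of a library against another group, and in both other groups for 4 of 9 libraries. With the replicate block, 7 of the 9 genes changed under pre-miR-29b-1, 8 under pre-miR-29a, 8 with both and 0 between the pre-miRs. Of all 9504 tested genes, 5552 then changed under pre-miR-29b-1, and 184 differed between the pre-miRs against 1 without the block. With the block included, the alternatives gave 4219 to 6790 changed genes with pre-miR-29a and 4437 to 6894 with both. No gene of the set that passed the test against anti-miR-29a changed direction in any alternative. Plod3, which did not pass, turned to 0.059 with pre-miR-29b-1 and 0.063 with both after quantile normalization, to -0.025 with pre-miR-29a under library weights, and ranged from -0.0063 to 0.038 with pre-miR-29a and -0.032 to 0.0072 with both without 1 library. Between the pre-miRs, Plod1 turned to 0.030 and Plod2 to 0.0041 after quantile normalization, Plod1 to 0.0039 and Plod3 to 0.0061 under library weights, and without 1 library Plod1 ranged from -0.027 to 0.035 and Plod2 from -0.068 to 0.015. The cause was not tested. Without 1 library the percentage point differences were 6.12 to 6.59 for P4ha2, -3.01 to -2.27 for Plod2 and 0.89 to 1.02 for Loxl2. Adjusted p values (exact permutation) then reached 0.0536, 0.107 and 0.0536, all without anti-miR-29a replicate 2. P4ha2 and Loxl2 had an unadjusted p of 0.0357 there, and that of Plod2 was 0.107. Depth limits Loxl2, and the 0 of Lox says only that it is listed so.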
